A study of Mus musculus with 3 samples.

Results

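Gene expression in the brain of mice with an occluded middle cerebral artery, the group labelled Vehicle, was compared with that of sham mice over all genes. The comparison took the 2 libraries of these groups from the 3 of the series. All 17992 gene symbols of the series were read, and 15558 of them had a mean of at least 1 CPM (the count scaled to the depth of its library, in the usual parts per 1000000) and entered it. Both groups were adult wild-type C57BL/6 mice, and total RNA of the brain, extracted with Trizol, was sequenced on an Illumina instrument. The sham group is labelled untreated. The vehicle group is the occlusion model: the middle cerebral artery, which feeds much of the cortex and striatum, is blocked. Its label too gives no treatment and names no vehicle substance. The third library, of mice on AGNHW (a traditional medicine, Angong Niuhuang Wan, at 3 mg/g/d), entered only the scaling and the mean CPM of the filter. Not given in the sources used here are how many mice each library holds, which part of the brain was taken and how long after the occlusion.

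With 1 library a group there is no replicate check of any difference. "Higher" and "lower" describe the vehicle library against the sham library, and not the conditions. The size rule asks for a ratio of scaled CPM of at least 1.5 either way with a 95% exact interval that excludes 1. Each interval, given in brackets, covers counting error only. The filter takes the mean CPM over all libraries of the series, so a scarce gene can enter through the library where it is high. In lists of scarce genes the share past the rule is therefore partly set by the filter. Log2 ratios are vehicle over sham, computed after adding a prior count of 5 to each library in proportion to its size.

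An arterial occlusion starves tissue of oxygen and glucose, and in the following hours and days damaged cells release signals that activate microglia, astrocytes and vessel walls. The body responds in parallel with adrenal glucocorticoids, which enter the brain and switch on a set of target genes through the receptor Nr3c1. Type I interferons are cytokines that induce antiviral genes through receptor kinases such as Jak1 and a complex of transcription factors, which bind a short DNA element in the promoters of their targets.

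Depth was 18286151 counts in sham, 15718594 in vehicle and 18184691 in AGNHW, with TMM factors (trimmed mean of M-values) of 1.03, 0.968 and 1.0. The 10 most abundant genes took between 6.40% and 6.76% of the counts, mitochondrial genes between 5.25% and 5.78%, and ribosomal protein genes between 1.21% and 1.76%. Brain markers were abundant in both libraries. The synaptic gene Snap25 had 34681 sham and 23691 vehicle counts, the vesicular glutamate transporter Slc17a7 38320 sham and 38851 vehicle counts, and the GABA-synthesising enzyme Gad1 5300 sham and 3367 vehicle counts. The myelin gene Mbp had 75268 sham and 87468 vehicle counts, the astrocyte glutamate transporter Slc1a2 27664 sham and 15288 vehicle counts, and the tight junction gene Cldn5 594 sham and 537 vehicle counts. Their presence fits the label brain and tells no region apart.

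In all, 1348 genes were higher in vehicle, 8.66% of those compared, and 2207 were lower, 14.2%. Another 12003 passed neither way. Of the genes past the rule, 37.9% were higher, and with plain CPM, that is with no TMM factor, 23.9% were. Most differences were small: 307 of the higher and 711 of the lower genes reached 2-fold, 38 and 57 reached 4-fold, and 11 and 5 reached 10-fold. The median log2 ratio was 0.01, with quartiles of -0.37 and 0.32. Near the limit of the rule the genes were dense, with 860 genes whose interval excluded 1 at a ratio between 1.5 and 1.6 either way and 1256 between 1.4 and 1.5.

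**Figure D1:**
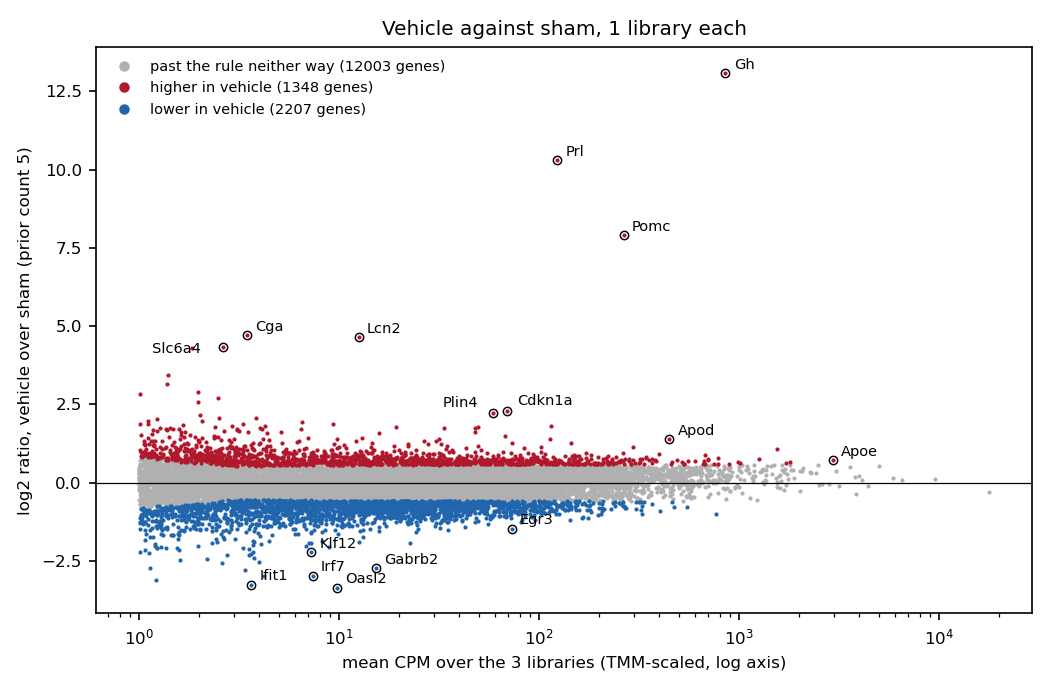
Log2 ratio of vehicle over sham (vertical axis) against the mean CPM over the 3 libraries (horizontal axis, log scale) for the 15558 genes compared, 1 point a gene, coloured by the size rule, with circles around named genes. Gh, Prl and Pomc stand far above all other genes, and the lowest points include the interferon genes Oasl2 and Ifit1.

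The log2 ratio followed the length and base composition of the transcript. Over the 9941 genes of at least 10 CPM that had a reference transcript, length and GC content together accounted for 48.2% of its variance, and length alone for 26.7%. In the shortest of 10 equal bins of length, with a median transcript of 966 bases, the median log2 ratio was 0.46, 32.4% of genes were higher and 0.704% lower. In the longest bin, with a median of 8456 bases, the median was -0.44, 0.402% of genes were higher and 35.5% lower. By GC content, the median ran from -0.55 in the lowest bin, where 45.9% of genes were lower, to 0.33 in the highest, where 17.1% were higher. Taken jointly, short GC-rich transcripts had a median of 0.44 and long GC-poor ones of -0.54.

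**Figure D2:**
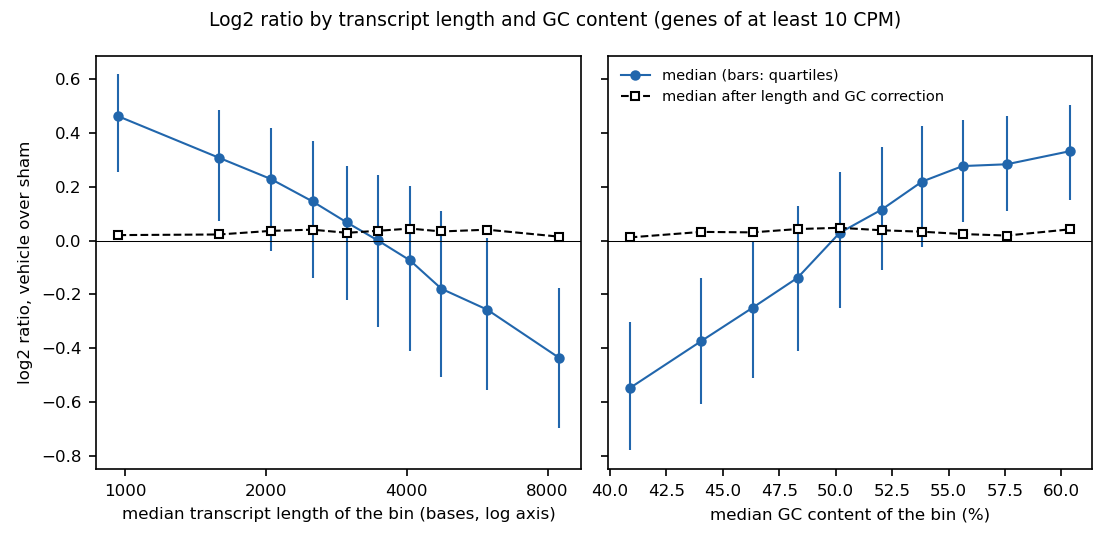
Median log2 ratio of vehicle over sham (vertical axis) in 10 equal bins of transcript length (left, bases, log scale) and of GC content (right, percent), for genes of at least 10 CPM. Filled circles are medians and bars run between the quartiles. Open squares are medians after the fitted trend was subtracted, and they stay near 0 in every bin, while the uncorrected medians run from 0.46 to -0.44 with length.

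A trend of this kind moves whole gene families whose transcripts share a length or composition, so counts of lists are given also after correction, as are most of the genes named higher or lower. The corrected log2 ratio is the log2 ratio minus the fitted smooth trend. Inside the brackets of a fold, "corrected" gives that value, and "lost" marks a gene that no longer passed the rule. What produced the trend was not tested, and with 1 library a group it cannot be told apart from the conditions. After correction 680 of 15234 genes were higher, 4.46%, and 1055 were lower, 6.93%. Of these, 431 and 768 had passed in the same direction without correction. Another 890 higher and 1395 lower genes passed only without it, and 0 genes passed in opposite directions. The count of a list is to be read against these shares, 8.66% and 14.2% before correction and 4.46% and 6.93% after it. The lists were chosen with earlier results of these data known, so such contrasts and rankings of lists are not independent of the data.

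Genes induced by interferon had the lowest medians of all lists in vehicle, and several of the sensors and factors of the pathway were lower with them. Of 30 measured receptors, sensors and transcription factors, 1 was higher and 13 lower in vehicle. The interferon-gamma receptor subunit Ifngr2, which is not part of the type I receptor, had 847 sham and 793 vehicle counts, ratio 1.16 (1.05 to 1.28). Jak1 had 1911 sham and 1269 vehicle counts, ratio 0.822 (0.765 to 0.882), and both passed the rule neither way. Values of the type I receptor subunits are not reported here. Irf7, the factor that amplifies interferon production, had 337 sham and 31 vehicle counts and was 8.79-fold lower (6.07 to 13.1, corrected -3.33). Usp18, a protease that removes Isg15 and dampens the receptor, had 98 sham and 11 vehicle counts and was 7.20-fold lower (3.85 to 14.9, corrected -2.62). Both intervals lay wholly beyond the 1.5-fold limit.

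The sensors of viral RNA were lower by smaller ratios. Ddx58, which encodes RIG-I, had 158 sham and 45 vehicle counts, 2.84-fold lower (2.03 to 4.05), and Ifih1, which encodes MDA5, had 77 sham and 21 vehicle counts, 2.96-fold lower (1.81 to 5.06, corrected -0.82). Trim25, the ubiquitin ligase that helps to activate RIG-I, had 160 sham and 49 vehicle counts, 2.64-fold lower (1.91 to 3.71, corrected -1.09). Stat3, a transcription factor that answers many cytokines, had 926 sham and 651 vehicle counts, ratio 0.870 (0.786 to 0.963). The corrected log2 ratios were -3.33 for Irf7, -2.62 for Usp18 and -1.12 for Ddx58, and of this list 0 were higher and 10 lower after correction.

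Antiviral effectors, the proteins that act on viral RNA and particles, had the second lowest median of the lists with at least 10 measured members. Of 51 measured, 1 was higher and 32 lower in vehicle, with a median log2 ratio of -0.93, and 0 were higher and 32 lower after correction. Oasl2, of the oligoadenylate synthetase family, had 442 sham and 31 vehicle counts, and Ifit1, which binds foreign RNA ends, had 165 sham and 10 vehicle counts. Their corrected log2 ratios were -3.27 and -2.94. The ubiquitin-like modifier Isg15 had 153 sham and 14 vehicle counts (corrected -3.32), and Bst2, which tethers budding virus to the cell surface, had 299 sham and 63 vehicle counts and was 3.84-fold lower (2.91 to 5.12, corrected -2.46). Not all members were lower. Adar, an RNA-editing enzyme made from both constitutive and interferon-driven promoters, had 2274 sham and 1653 vehicle counts, ratio 0.899 (0.844 to 0.959), and Ifi27 had 656 sham and 510 vehicle counts, ratio 0.962 (0.855 to 1.08).

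The interferon-inducible GTPases, which attack the vacuoles of intracellular pathogens, had the lowest median of all lists with at least 10 measured members, -1.64 and -1.48 after correction. Of 11 measured members of the GTPase and HIN families, 10 were lower and 0 higher, and 0 were higher and 10 lower after correction. The guanylate-binding protein genes Gbp3, Gbp2 and Gbp5 had 194, 149 and 90 counts in sham and 16, 19 and 11 in vehicle. Iigp1, an immunity-related GTPase, had 63 sham and 8 vehicle counts and was 6.37-fold lower (3.04 to 15.4, corrected -1.65), its family member Irgm2 was 4.22-fold lower (2.68 to 6.91, corrected -1.61), and Irgm1 was 3.32-fold lower (2.40 to 4.69, corrected -1.48). Another 7 counted members lay under a mean of 1 CPM and were not compared.

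Antigen presentation, which interferons also raise, differed in few genes before correction. Of 22 measured genes of the class I pathway, 0 were higher and 1 lower in vehicle, with a median of 0.09. The lower gene, the class I-like H2-T24, had 108 sham and 11 vehicle counts and was 7.94-fold lower (4.26 to 16.4, corrected -2.59). It has close relatives in the same cluster, so its reads may be split between copies. The peptide-loading chaperones Calr and Pdia3 had ratios of 1.12 (1.08 to 1.17) and 1.06 (1.01 to 1.12). B2m, the light chain of class I, was chosen after its values were seen: it had 1338 sham and 951 vehicle counts, ratio 0.879 (0.808 to 0.956). After correction 0 of the list were higher and 5 lower, where the shares over all genes were 4.46% and 6.93%, and the median was -0.08. Microglia make many interferon-induced genes, and the microglial list, with 11 of 40 members lower and 4 higher, had summed levels of 4678 CPM in sham and 6629 CPM in vehicle. Apoe alone, which astrocytes also make, had 2192 CPM in sham and 3611 CPM in vehicle (corrected 0.25, lost). The part of microglial content in the interferon result was not tested.

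The factors that carry the interferon signal bind a repeated element whose core reads GAAANNGAAA. The 4 promoters shown are those of an effector, an RNA-binding effector and a GTPase that were lower, and of B2m. By the rule before correction B2m was not lower. Promoters ran from 250 bases before to 50 bases after the start site of the transcript, from RefSeq on build GRCm38.p6, each 5′ to 3′ on the strand of its gene, with the matches to the core on either strand in capitals. Overlapping matches were each counted.
Isg15 (chr4:156200769-156201068, minus strand): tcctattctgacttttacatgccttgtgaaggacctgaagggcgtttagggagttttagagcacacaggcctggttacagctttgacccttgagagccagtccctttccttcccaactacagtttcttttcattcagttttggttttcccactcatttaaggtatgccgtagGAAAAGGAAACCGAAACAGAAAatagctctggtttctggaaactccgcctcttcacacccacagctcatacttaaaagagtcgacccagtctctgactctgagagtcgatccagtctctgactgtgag
Ifit1 (chr19:34640639-34640938, plus strand): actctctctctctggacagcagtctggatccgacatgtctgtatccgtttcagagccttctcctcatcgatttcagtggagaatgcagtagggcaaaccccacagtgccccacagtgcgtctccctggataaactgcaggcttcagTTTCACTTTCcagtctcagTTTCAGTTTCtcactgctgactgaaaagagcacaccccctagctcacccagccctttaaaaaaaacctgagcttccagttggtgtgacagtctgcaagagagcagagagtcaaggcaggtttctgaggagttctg
Gbp3 (chr3:142559794-142560093, plus strand): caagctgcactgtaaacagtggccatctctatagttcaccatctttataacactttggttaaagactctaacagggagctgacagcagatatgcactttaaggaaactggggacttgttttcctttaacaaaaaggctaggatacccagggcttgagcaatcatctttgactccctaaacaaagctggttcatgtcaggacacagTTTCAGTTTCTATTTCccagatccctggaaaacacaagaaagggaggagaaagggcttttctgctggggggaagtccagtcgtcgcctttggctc
B2m (chr2:122147437-122147736, plus strand): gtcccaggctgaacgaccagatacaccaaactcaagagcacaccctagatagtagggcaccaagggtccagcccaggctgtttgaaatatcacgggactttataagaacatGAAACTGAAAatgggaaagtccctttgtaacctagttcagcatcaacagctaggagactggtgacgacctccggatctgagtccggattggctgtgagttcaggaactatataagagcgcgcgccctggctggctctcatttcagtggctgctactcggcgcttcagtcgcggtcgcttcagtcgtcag
The Isg15 window held 3 overlapping matches, which began between bases -78 and -66 from the start site. The Ifit1 window held 2 at -104 and -85, and that of Gbp3 2 at -45 and -39. B2m, which passed the rule neither way before correction, also held 1 match, at -139.

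Of all 32851 promoter windows, 3.44% held the core, and of the genes compared that had a window, 3.39% did. Among antiviral effectors lower in vehicle, 14 of 26 with a window held it, against 2 of 14 of those past the rule neither way and 1 of 1 higher. Among the GTPases and HIN genes lower in vehicle, 8 of 8 held it. For receptors, sensors and factors the numbers were 3 of 9 lower genes and 2 of 15 past neither way. A match in the letters is a description and shows no binding, and the lists were assembled from genes known to answer interferon. Other elements were searched the same way on both strands. The glucocorticoid element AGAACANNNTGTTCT was in 0 of 16 windows of glucocorticoid-responsive genes higher in vehicle and in 1 of 15 past neither way, against 3 of all windows. The cyclic AMP element TGACGTCA was in 0 of 13 windows of immediate early genes lower in vehicle, 1 of 3 higher and 3 of 16 past neither way, against 1.79% of all windows and 3.48% of the genes compared. The clock E box CACGTG was in 7 of 23 windows of clock genes, against 7.15% of all windows and 11.4% of the genes compared.

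**Figure D3:**
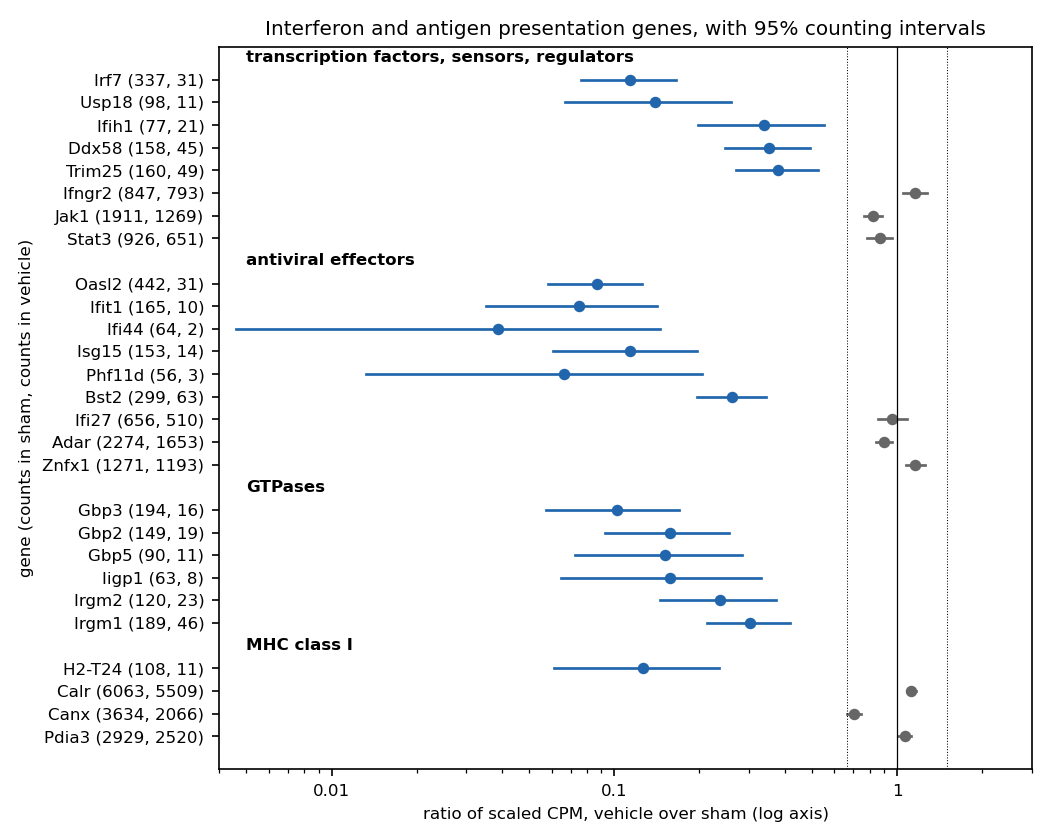
Ratio of scaled CPM, vehicle over sham (horizontal axis, log scale), for named interferon and antigen presentation genes, with 95% counting intervals as bars and the counts in sham and vehicle in brackets beside each name. Blue marks genes past the size rule, whose limits are the dotted lines. The transcription factor Irf7, 6 of the 9 effectors and the GTPases lie far to the left, while Jak1, Stat3, Adar and the class I chaperones lie between the limits.

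Toll-like receptor and NF-kappaB genes, which drive the other main branch of innate signalling, had shares near or under those over all genes. Of 26 measured, 1 was higher and 4 lower in vehicle, where the shares over all genes were 8.66% and 14.2%, and the median was -0.03. The gene higher was Nfkbia, the inhibitor that holds NF-kappaB in the cytoplasm, with 438 sham and 693 vehicle counts, 1.96-fold higher (1.73 to 2.21, corrected 0.64). Lower were the subunit Rel with 63 sham and 25 vehicle counts, 2.04-fold lower (1.26 to 3.38, corrected -0.27, lost), and the kinase Chuk with 401 sham and 185 vehicle counts, 1.75-fold lower (1.47 to 2.10, corrected -0.32, lost). The feedback inhibitor Tnfaip3, which encodes A20, was 1.65-fold lower (1.14 to 2.44, corrected -0.48, lost). Of the list, 2 were higher and 0 lower after correction.

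Acute-phase and activated-vessel genes stood on the other side. Of 23 measured, 13 were higher and 3 lower in vehicle, with a median of 0.69 and of 0.61 after correction, when 12 were higher and 2 lower. Lcn2, an iron-sequestering lipocalin of reactive glia, endothelium and neutrophils, had 9 sham and 289 vehicle counts (corrected 4.13). Icam1, the endothelial adhesion molecule that leukocytes grip, had 38 sham and 120 vehicle counts (corrected 1.56). Lrg1, a secreted glycoprotein of activated vessels, had 61 sham and 194 vehicle counts and was 3.93-fold higher (2.94 to 5.34, corrected 1.41). The clotting factor gene Vwf had 431 sham and 757 vehicle counts (corrected 1.18), and the transglutaminase Tgm2 had 210 sham and 338 vehicle counts and was 1.99-fold higher (1.67 to 2.38, corrected 0.81). For every one of these genes the vehicle library held more counts than sham although it was the shallower. Cebpb, a transcription factor of the acute phase, was 1.70-fold higher (1.13 to 2.58, corrected 0.24, lost) from 43 sham and 59 vehicle counts. Serpina3n, an acute-phase protease inhibitor of reactive astrocytes, had 865 sham and 773 vehicle counts, ratio 1.11 (1.0 to 1.22). Leukocyte genes were sparse: of 27 listed, 10 were counted and 7 measured, 2 of them higher and 2 lower (2 and 1 after correction), with summed levels of 123 CPM in sham and 164 CPM in vehicle. Their part in the acute-phase result was not tested.

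Genes that answer glucocorticoids were higher in vehicle more often than all genes. Of 40 measured, 17 were higher and 3 lower in vehicle, and 15 were higher and 1 lower after correction, with medians of 0.40 and 0.34. Cdkn1a, the cell cycle inhibitor p21, had 385 sham and 1524 vehicle counts and was 4.90-fold higher (4.38 to 5.49). Plin4, a coat protein of lipid droplets, had 343 sham and 1304 vehicle counts and was 4.70-fold higher (4.17 to 5.31). The kinase Map3k6 had 147 sham and 420 vehicle counts, 3.53-fold higher (2.92 to 4.29), and the sulfotransferase Sult1a1 269 sham and 737 vehicle counts, 3.39-fold higher (2.94 to 3.91). These genes hold the largest differences of the list besides Lcn2, which is listed here too, and their corrected log2 ratios were 1.98, 2.21, 1.67 and 1.64. Fkbp5, the textbook target that buffers the receptor, was chosen after its values were seen and had 1029 sham and 2206 vehicle counts (corrected 1.44).

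Other targets were higher at high levels of expression. Ddit4, an inhibitor of the growth kinase mTORC1, had 1241 sham and 2200 vehicle counts, 2.19-fold higher (2.04 to 2.35, corrected 0.73). The metallothionein Mt1 had 3619 sham and 6402 vehicle counts, 2.19-fold higher (2.10 to 2.28, lost), but its corrected log2 ratio of 0.39 lay inside the limit. Fam107a, an actin-binding stress gene, had 9804 sham and 11981 vehicle counts, 1.51-fold higher (1.47 to 1.55, corrected 0.68), and the glucose transporter Slc2a1 2607 sham and 3291 vehicle counts, 1.56-fold higher (1.48 to 1.64, corrected 0.51, lost). The receptor itself went the other way, since Nr3c1 had 952 sham and 380 vehicle counts and was 2.02-fold lower (1.80 to 2.29, lost), with a corrected value of -0.39 that did not pass. Per1, a clock gene with glucocorticoid response elements, had 3222 sham and 2961 vehicle counts, ratio 1.14 (1.08 to 1.20). Pituitary transcripts, among them the corticotropin precursor Pomc, were also higher in the vehicle library, and their part in this result was not tested.

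Targets of fasting, of the fatty acid receptors of the PPAR family and of FOXO factors also held more higher than lower genes, and Plin4 belongs to both lists. Of 37 measured, 12 were higher and 3 lower in vehicle, with 8 higher and 0 lower after correction. Angptl4, which inhibits lipoprotein lipase, had 60 sham and 171 vehicle counts, 3.53-fold higher (2.61 to 4.81). The uncoupling protein Ucp2 had 848 sham and 1667 vehicle counts, 2.43-fold higher (2.24 to 2.64, corrected 1.18), and the mitochondrial carrier Slc25a34 145 sham and 292 vehicle counts, 2.49-fold higher (2.03 to 3.06). All of these passed also after correction, with values between 1.01 and 1.75. Pdk2, a kinase that shuts pyruvate out of the mitochondrion, had 2920 sham and 4077 vehicle counts and was 1.73-fold higher (1.65 to 1.81, corrected 0.47, lost).

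**Figure D4:**
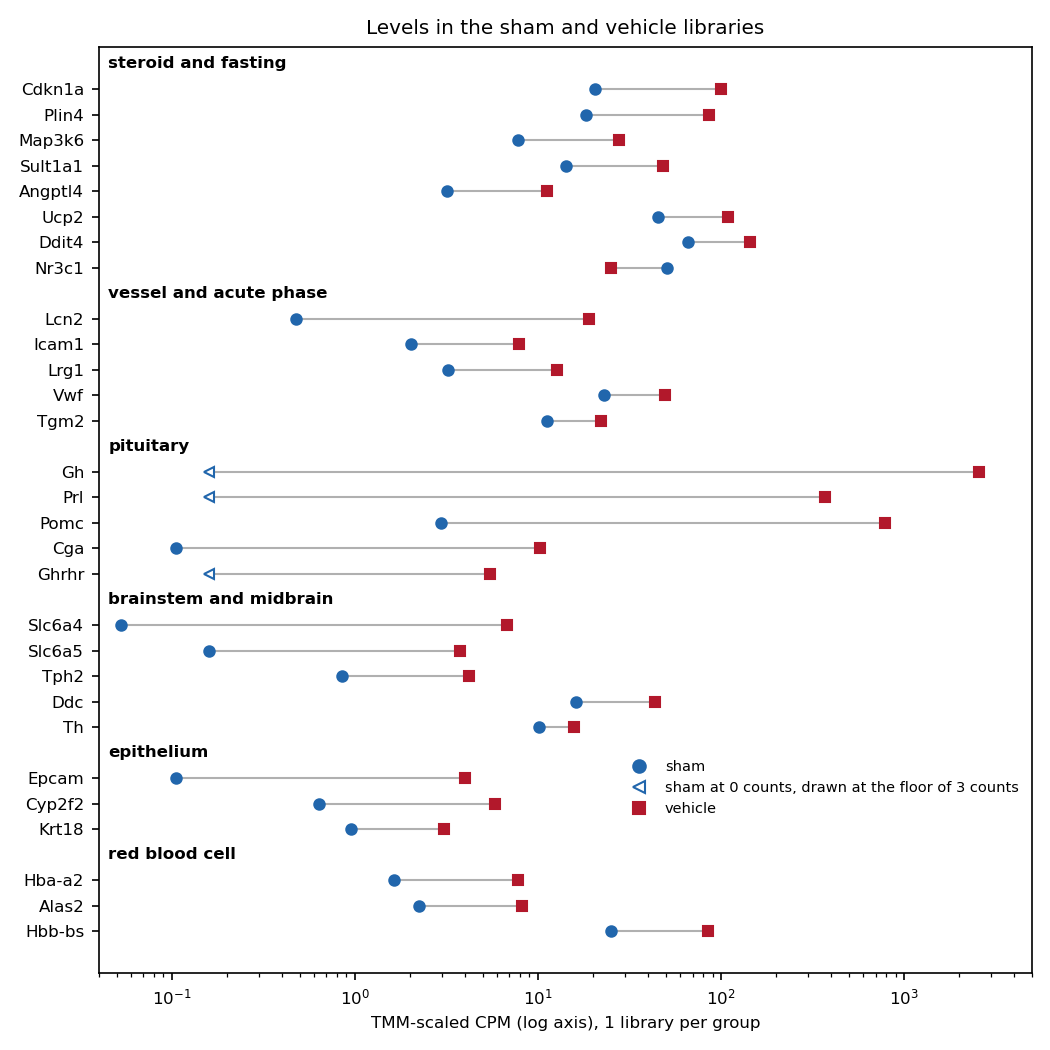
TMM-scaled CPM (horizontal axis, log scale) in the sham library (circles) and the vehicle library (squares) for named genes of 6 groups, 1 library per group and no error bars. Open triangles mark genes at 0 counts in sham, drawn at the floor of 3 counts. All genes drawn except the receptor Nr3c1 were higher in vehicle, from 1.55-fold for Th to the pituitary hormones.

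Of 29 measured genes of the circadian clock and its output, 2 were higher and 4 lower in vehicle, 6.90% and 13.8%, near the 8.66% and 14.2% over all genes. After correction 1 was higher and 2 lower. The output factors Dbp, Tef and Hlf, whose levels swing widely over the day in many tissues, had ratios of 0.965 (0.904 to 1.03), 1.18 (1.15 to 1.22) and 0.795 (0.755 to 0.838). Arntl, the partner of Clock that peaks in antiphase to Dbp, had 462 sham and 275 vehicle counts, ratio 0.736 (0.632 to 0.857). Clock had 911 sham and 419 vehicle counts, 1.76-fold lower (1.56 to 1.98, lost), but -0.06 after correction.

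Immediate early genes, which neurons switch on within minutes of activity, held more lower members than all genes did. Of 42 measured, 3 were higher and 17 lower in vehicle, and 22 passed neither way. The lower share was 40.5%, against 14.2% over all genes. After correction 1 was higher and 16 lower. The zinc finger factors Egr1 and Egr3 had 4128 sham and 1564 vehicle counts for Egr1 and 2073 sham and 605 vehicle counts for Egr3, 2.13-fold lower (2.01 to 2.26, corrected -1.18) and 2.77-fold lower (2.53 to 3.04, corrected -1.41). The synaptic regulator Arc had 3523 sham and 1722 vehicle counts and was 1.65-fold lower (1.56 to 1.75, corrected -0.96). Egr2, an activity gene that Schwann cells also express, had 80 sham and 18 vehicle counts (corrected -1.67), and Homer1, whose short form is induced by activity, 1256 sham and 375 vehicle counts (corrected -0.98). Maff, a small Maf factor induced by stress, went the other way with 45 sham and 152 vehicle counts, 4.18-fold higher (2.98 to 5.97, corrected 1.57). Plk2, a kinase of synaptic scaling, passed neither way with 3062 sham and 2074 vehicle counts, ratio 0.838 (0.792 to 0.886).

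Some transcripts of other tissues and of deep regions were present in the vehicle library and almost absent from sham. In bulk tissue, more cells of a type and more RNA per cell cannot be told apart. Of 19 measured pituitary genes, 10 were higher and 1 lower in vehicle, with 8 higher and 0 lower after correction and summed levels of 1068 CPM in sham and 4891 CPM in vehicle. Folds against 0 counts take 3 counts in the sham library as its floor. Growth hormone (Gh) had 0 sham and 39065 vehicle counts, at least 16110-fold higher. Prolactin (Prl) had 0 sham and 5606 vehicle counts, at least 2312-fold higher, and the receptor Ghrhr 0 sham and 83 vehicle counts, at least 34.2-fold higher. All of these passed also after correction. Pomc had 56 sham and 12008 vehicle counts, 265-fold higher (204 to 351, corrected 7.36), and the hormone subunit Cga had 2 sham and 156 vehicle counts, 96.5-fold higher (26.3 to 804, corrected 4.46). The anterior lobe factors Lhx3 and Tbx19 were chosen after their values were seen: they had 1 and 0 counts in sham and 33 and 25 in vehicle. In contrast Pcsk1, the protease that cuts prohormones in pituitary and brain, was 1.95-fold lower (1.64 to 2.33, corrected -0.33, lost), and the granin Chgb, common to neurons and endocrine cells, had 8415 sham and 7518 vehicle counts, ratio 1.11 (1.07 to 1.14).

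Several genes of monoamine neurons were higher too. Of 19 measured genes of monoamine synthesis, transport and breakdown, 7 were higher, 36.8% against 8.66% over all genes, 0 lower and 12 neither. After correction 7 were higher and 1 lower. The serotonin transporter Slc6a4 had 1 sham and 103 vehicle counts, 127-fold higher (22.4 to 5082, corrected 4.24). Tph2, which makes serotonin in the raphe nuclei of the brainstem, had 16 sham and 64 vehicle counts, 4.95-fold higher (2.83 to 9.17, corrected 2.15). The dopamine genes of the midbrain differed less: Th had 192 sham and 240 vehicle counts, 1.55-fold higher (1.27 to 1.88, corrected 0.23, lost), and the dopamine transporter Slc6a3 159 sham and 198 vehicle counts, 1.54-fold higher (1.24 to 1.91, corrected 0.60). Ddc, the decarboxylase shared by both systems, had 306 sham and 664 vehicle counts, 2.68-fold higher (2.34 to 3.08, corrected 1.37). The intervals of the serotonin genes Slc6a4 and Tph2 do not meet those of Th and Slc6a3.

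Other hindbrain genes split. The glycine transporter Slc6a5 of brainstem and spinal neurons had 3 sham and 57 vehicle counts and was 23.5-fold higher (7.65 to 117, corrected 3.54), while the glycine receptor subunit Glrb, which is expressed widely, had 2066 sham and 874 vehicle counts and was 1.91-fold lower (1.76 to 2.07, corrected -0.49, lost). Of 36 listed hindbrain and spinal genes only 13 were measured, 2 higher and 3 lower, and 3 and 0 after correction. Cerebellar genes gave 2 higher and 2 lower of 19, near the shares over all genes, and 0 and 1 after correction. Before correction the Purkinje cell genes among them differed in direction, with the glutamate transporter Slc1a6 1.70-fold higher (1.42 to 2.04, corrected 0.41, lost) and the calcium channel Itpr1 1.56-fold lower (1.49 to 1.63, corrected -0.26, lost).

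Hypothalamic peptide genes were more often higher than lower before correction, but not after it. Of 25 measured, 7 were higher and 2 lower in vehicle, but 2 were higher and 3 lower after correction. Pomc and Cartpt were those still higher. Oxytocin (Oxt) had 174 sham and 319 vehicle counts, 2.27-fold higher (1.88 to 2.74, lost), and a corrected log2 ratio of 0.41. Cartpt, a satiety peptide, had 275 sham and 460 vehicle counts, 2.07-fold higher (1.78 to 2.41, corrected 0.62). The relaxin receptor Rxfp1 was lower with 209 sham and 64 vehicle counts, 2.64-fold lower (1.99 to 3.55, corrected -0.73).

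Of the genes of forebrain regions, the cortical list held more lower members than all genes did, 25.7% against 14.2%. Striatal projection neuron genes had 1 member higher and 3 lower of 27, and 0 and 2 after correction. Ppp1r1b, the dopamine-regulated inhibitor DARPP-32, had 10416 sham and 14554 vehicle counts, 1.73-fold higher (1.69 to 1.77, corrected 0.42, lost), and the striatal phosphodiesterase Pde10a 2066 sham and 796 vehicle counts, 2.10-fold lower (1.93 to 2.28, corrected -0.67). Cortical and hippocampal genes had 1 higher and 9 lower of 35, and 0 and 4 after correction, with medians of -0.33 and -0.04. C1ql3, a secreted synapse organiser, had 252 sham and 50 vehicle counts, 4.07-fold lower (3.00 to 5.63, corrected -2.12). Mef2c, an activity-dependent factor, had 6768 sham and 3141 vehicle counts and was 1.74-fold lower (1.67 to 1.82, corrected -0.62). Of 18 thalamic genes, 1 was higher and 1 lower, and 0 and 1 after correction.

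Several transcripts of epithelium and of blood were higher at low levels. Of 8 measured airway and other epithelial genes, 5 were higher and 0 lower (5 and 0 after correction), with summed levels of 9.83 CPM in sham and 26.2 CPM in vehicle. Epcam, an adhesion molecule of epithelia, had 2 sham and 61 vehicle counts (corrected 3.19). Cyp2f2, an enzyme of airway and nasal epithelium, had 12 sham and 89 vehicle counts (corrected 2.44), and the keratin Krt18 18 sham and 47 vehicle counts (corrected 0.99). Of 9 red blood cell genes 5 were higher and 0 lower (5 and 0 after correction), with summed levels of 474 CPM in sham and 574 CPM in vehicle. The haem enzyme Alas2 had 42 sham and 125 vehicle counts (corrected 1.5) and the globin Hbb-bs 474 sham and 1300 vehicle counts (corrected 1.25); globin genes have near-identical copies, so the values of single globins are uncertain. Choroid plexus genes had 6 higher and 1 lower of 27 (7 and 2 after correction), with summed levels of 992 CPM in sham and 1413 CPM in vehicle. The thyroxine carrier Ttr had 9382 sham and 13901 vehicle counts, 1.83-fold higher (1.79 to 1.88, corrected 0.81), and the folate receptor Folr1 81 sham and 140 vehicle counts, 2.14-fold higher (1.62 to 2.85, corrected 0.62). Motile cilia genes had 10 higher and 3 lower of 34 (5 and 0 after correction), and the tektin Tekt4 had 32 sham and 96 vehicle counts, 3.71-fold higher (2.46 to 5.72, corrected 1.29). Peripheral nerve and sensory ganglion genes had 3 higher and 2 lower of 15 (1 and 1 after correction). The member with the largest log2 ratio was Scn10a, a sodium channel of sensory ganglia. It had 22 sham and 65 vehicle counts, 3.66-fold higher (2.22 to 6.23, corrected 1.75). How much of the higher hormone, monoamine, epithelial and blood transcripts came from different tissue in the 2 samples was not tested.

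Receptor genes of the main transmitters were lower more often than higher, as were all genes (14.2% against 8.66%). Fewer were past the rule after correction. GABA-A receptor subunits had 8 of 16 members lower and 0 higher, with a median of -0.50. After correction 0 were higher and 1 was lower. That gene was the subunit Gabrb2, with 592 sham and 68 vehicle counts, 7.04-fold lower (5.47 to 9.18) and -2.31 after correction. Gabra4, another subunit, had 1264 sham and 521 vehicle counts, 1.96-fold lower (1.77 to 2.18, lost), and -0.47 after correction, which did not pass.

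Glutamate receptor genes were also lower more often than higher before correction. Of 26 measured AMPA, NMDA and kainate receptor subunits and auxiliary subunits, 0 were higher and 6 lower in vehicle, and 1 was higher and 0 lower after correction. Their lower share before correction was 23.1%, against 50% for GABA-A subunits and 14.2% over all genes. Gria2, the subunit that makes AMPA receptors impermeable to calcium, had 4806 sham and 1760 vehicle counts, 2.21-fold lower (2.09 to 2.33, lost), and -0.24 after correction. The NMDA receptor subunit Grin2b had 6139 sham and 3084 vehicle counts, 1.61-fold lower (1.54 to 1.68, lost), but 0.07 after correction, on the other side of 0. Grin1, the obligatory subunit, had 9660 sham and 10408 vehicle counts, ratio 1.33 (1.3 to 1.37). Among metabotropic receptors and their scaffolds, 6 of 12 were lower and 1 was higher, and 0 were higher and 3 lower after correction. The scaffolds Homer1 and Homer2 were among those lower also after correction, at -0.98 and -1.12. Aminergic and cholinergic receptors had 0 higher and 8 lower of 34, and 0 were higher and 4 lower after correction. The nicotinic subunit Chrna7 had 62 sham and 15 vehicle counts, 3.34-fold lower (1.88 to 6.32, corrected -1.70), and the alpha-1A adrenergic receptor Adra1a 134 sham and 39 vehicle counts, 2.78-fold lower (1.93 to 4.08, corrected -1.23).

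Synaptic vesicle genes had medians near 0. Of 67 measured, 2 were higher and 9 lower in vehicle, and 1 was higher and 2 lower after correction, with medians of -0.02 and 0.01. The vesicle protein Syp had 21389 sham and 24901 vehicle counts, ratio 1.44 (1.41 to 1.47), and the fission enzyme Dnm1 32271 sham and 33618 vehicle counts, ratio 1.29 (1.27 to 1.31). The lower members include large active zone proteins: Pclo had 2551 sham and 1065 vehicle counts, 1.94-fold lower (1.80 to 2.08, corrected -0.22, lost), and Rims1 3154 sham and 1384 vehicle counts, 1.84-fold lower (1.73 to 1.96, corrected -0.47, lost). Stxbp5l, an inhibitor of vesicle fusion, had 190 sham and 46 vehicle counts, 3.34-fold lower (2.41 to 4.71), and stayed lower after correction at -1.18.

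Potassium channel genes were lower more often than higher, as were all genes. Of 76 measured, 5 were higher and 17 lower in vehicle, 6.58% and 22.4% against 8.66% and 14.2% over all genes. After correction 2 were higher and 7 lower, where the shares over all genes were 4.46% and 6.93%. Kcnh7, of the ERG family, had 741 sham and 198 vehicle counts, 3.02-fold lower (2.58 to 3.56, corrected -0.72), and Kcnv1, a silent subunit, 836 sham and 324 vehicle counts, 2.09-fold lower (1.83 to 2.38, corrected -0.49, lost). The beta subunit Kcnab2 was higher with 11661 sham and 14301 vehicle counts, 1.52-fold higher (1.48 to 1.55, corrected 0.46, lost). Of 36 sodium and calcium channel genes, 1 was higher and 6 lower in vehicle, a lower share of 16.7% against 14.2% over all genes, and 2 were higher and 1 lower after correction. The axonal channels Scn1a and Scn2a had 1789 sham and 692 vehicle counts and 3381 sham and 1503 vehicle counts, with corrected log2 ratios of -0.42 and -0.21.

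Cell adhesion and guidance genes leaned lower, less so after correction. Of 74 neurexin, neuroligin, contactin and cadherin genes, 2 were higher and 27 lower in vehicle, and 1 was higher and 11 lower after correction. The teneurin Tenm1 had 234 sham and 43 vehicle counts, 4.40-fold lower (3.17 to 6.24, corrected -1.27), and Ncam2, of the neural cell adhesion molecules, 195 sham and 54 vehicle counts, 2.92-fold lower (2.15 to 4.02, corrected -0.80). Of 70 axon guidance genes, 0 were higher and 17 lower, and 0 were higher and 8 lower after correction. The ephrin receptor Epha5 had 842 sham and 306 vehicle counts, 2.22-fold lower (1.95 to 2.54, corrected -0.73), the Slit receptor Robo1 489 sham and 181 vehicle counts, 2.18-fold lower (1.84 to 2.60, corrected -0.78), and Nrp1, the receptor of semaphorins and of VEGF, 209 sham and 77 vehicle counts, 2.19-fold lower (1.68 to 2.89, corrected -1.0). Clustered protocadherins, which give each neuron a surface identity, had 0 higher and 14 lower of 44, and 1 was higher and 10 lower after correction. Pcdhac2, a C-type member, had 214 sham and 73 vehicle counts, 2.37-fold lower (1.81 to 3.13, corrected -0.94), and Pcdhgc5 1348 sham and 713 vehicle counts, 1.53-fold lower (1.39 to 1.68, corrected -0.63). Genes within the alpha and within the gamma protocadherin cluster share their last exons, so reads from those exons cannot be assigned to one member.

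Families of short transcripts were higher more often than all genes, and most of their higher members no longer passed after correction. Of 80 cytosolic ribosomal protein genes, whose median transcript was 866 bases in the reference, 45 were higher and 0 lower. Their median was 0.62 and fell to 0.18 after correction, with 7 higher and 0 lower. Rps27a, a ribosomal protein made as a fusion with ubiquitin, stood apart with 873 sham and 2471 vehicle counts, 3.50-fold higher (3.24 to 3.79) and 1.47 after correction. Rps14 had 5297 sham and 8174 vehicle counts, 1.91-fold higher (1.84 to 1.98, lost), and 0.32 after correction. Ribosomal protein genes have many processed pseudogenes, and the assignment of their reads is uncertain. The processed pseudogenes themselves had 83 of 335 genes higher and 22 lower, with a median of 0.26, and of -0.18 after correction.

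Respiratory chain genes of the nucleus gave similar counts. Of 38 complex I genes 16 were higher and 0 lower, and 3 and 0 after correction. Of 13 cytochrome c oxidase genes 8 were higher and 0 after correction, and of 14 ATP synthase genes 6 and 1. Ndufa13 had 2177 sham and 3208 vehicle counts, 1.82-fold higher (1.73 to 1.93, lost), Cox5b 4473 sham and 6178 vehicle counts, 1.71-fold higher (1.64 to 1.78, lost), and Atp5d 3426 sham and 4284 vehicle counts, 1.55-fold higher (1.48 to 1.62, lost). Their corrected log2 ratios were 0.36, 0.49 and 0.16. Medians fell from 0.54 to 0.16 for complex I, from 0.61 to 0.16 for cytochrome c oxidase and from 0.54 to 0.15 for ATP synthase. Of 13 partner genes encoded in the mitochondrion, 0 were higher and 1 lower in vehicle, but 3 were higher and 1 lower after correction, and their median went from 0.13 to 0.31. mt-Co1 had 374321 sham and 246555 vehicle counts, ratio 0.815 (0.811 to 0.819). Proteasome genes had 5 higher and 0 lower of 46, and 2 and 2 after correction. Mitochondrial ribosomal protein genes had 15 and 0 of 77, and 9 and 0 after correction.

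Families of long transcripts were lower more often than all genes. Of 48 genes of giant scaffolds, ankyrins, spectrins and motors, with a median transcript of 12563 bases, 0 were higher and 21 lower, and 0 were higher and 3 lower after correction. The kinesin Kif21a had 2226 sham and 749 vehicle counts, 2.40-fold lower (2.21 to 2.61), and -0.84 after correction. Ank2, the axonal ankyrin, had 7861 sham and 3832 vehicle counts, 1.66-fold lower (1.6 to 1.72, lost), and -0.26. Kif1a, the kinesin of vesicle precursors, had 24457 sham and 21014 vehicle counts, ratio 1.06 (1.04 to 1.08). Chromatin regulators had 1 higher and 26 lower of 73, and 0 were higher and 5 lower after correction. Atrx, a remodeller of heterochromatin, had 1568 sham and 501 vehicle counts, 2.53-fold lower (2.29 to 2.80, lost), and -0.52 after correction. Zinc finger genes named Zfp had 8 higher and 88 lower of 336, and 11 and 14 after correction, when their median of -0.27 became 0.01. Splicing factors, whose median transcript of 3036 bases is close to the 2953 of all genes, had 4 higher and 23 lower of 152. Their lower share of 15.1% was near the 14.2% over all genes, and 3 were higher and 9 lower after correction. Among those lower was the neuronal RNA-binding gene Elavl2 with 632 sham and 205 vehicle counts, 2.49-fold lower (2.13 to 2.93, corrected -0.69).

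**Figure D5:**
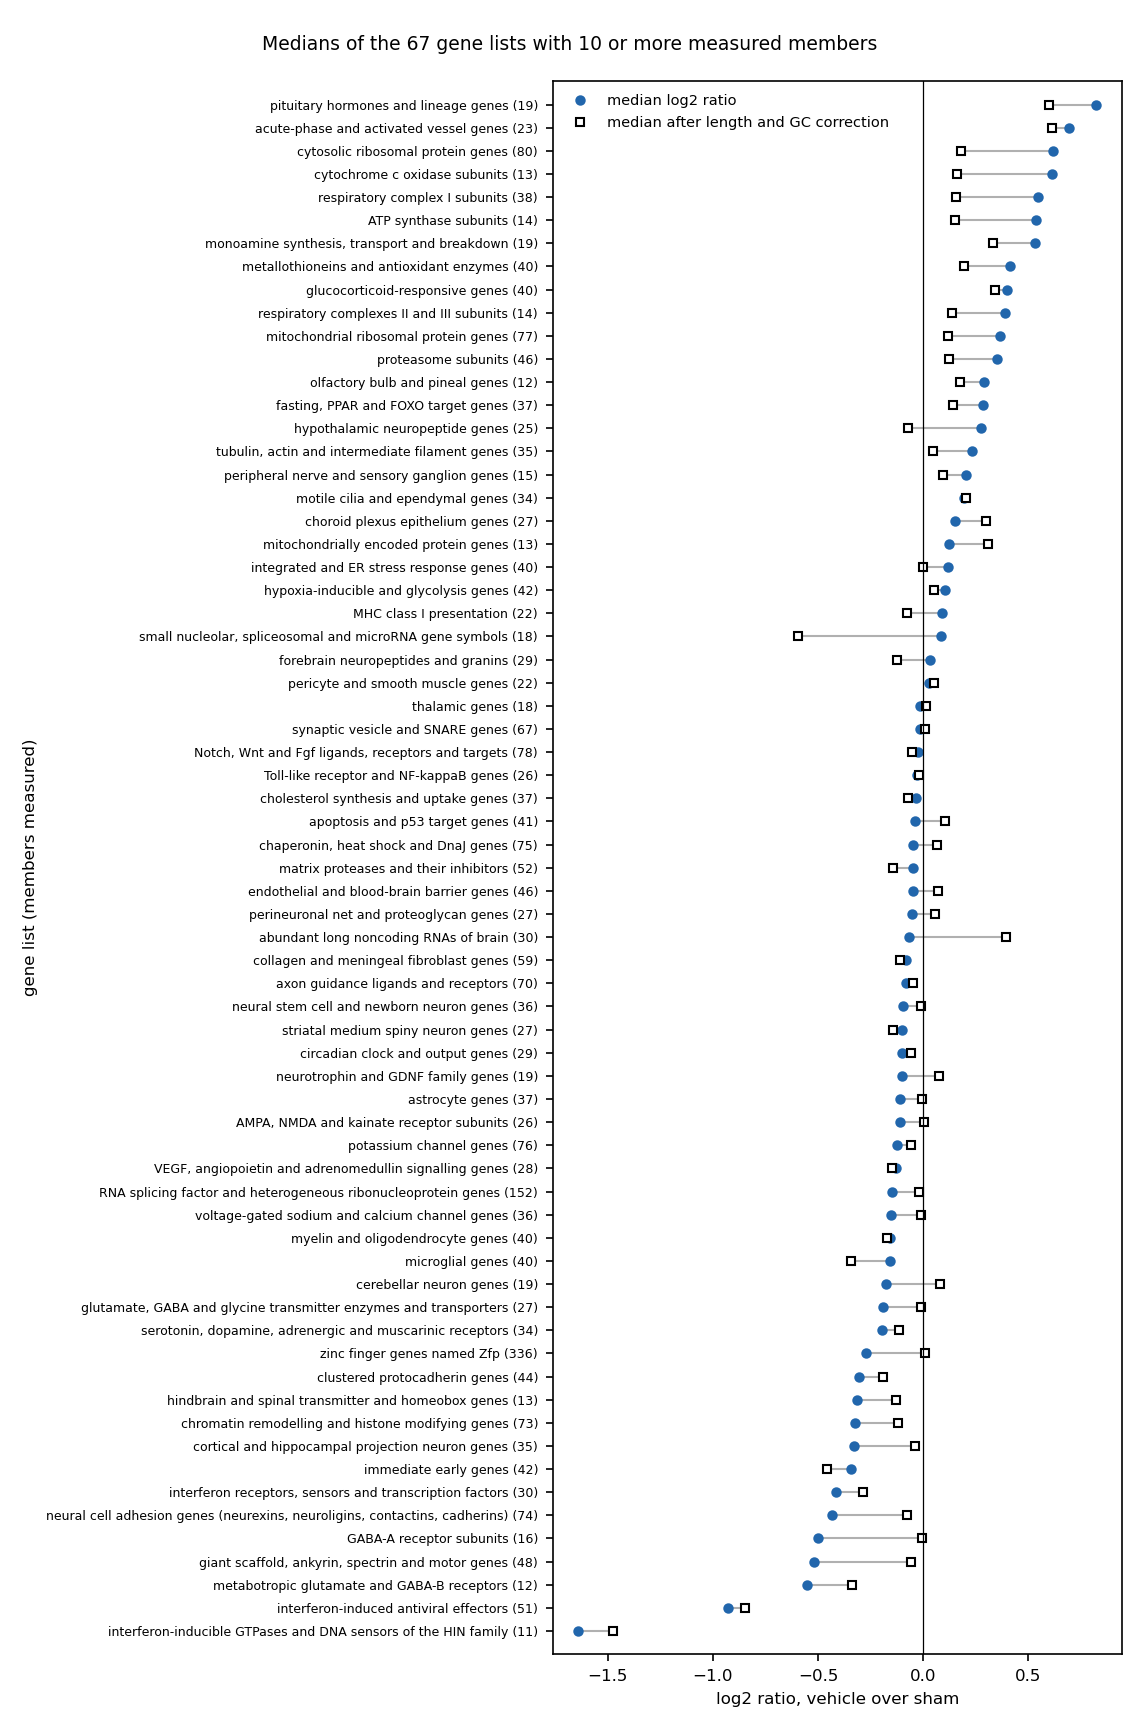
Median log2 ratio of vehicle over sham for the 67 gene lists with at least 10 measured members, before (circles) and after (squares) the correction for transcript length and GC content, with the number of measured members in brackets. The 2 lists of interferon-induced genes are lowest before and after correction and the acute-phase, glucocorticoid and pituitary lists stay high, while ribosomal, respiratory and giant scaffold genes move toward 0.

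Glial genes differed within each cell type. Among 37 astrocyte genes, 4 were higher and 6 lower in vehicle, and 5 were higher and 6 lower after correction. The filament gene Gfap had 8086 sham and 3615 vehicle counts, 1.81-fold lower (1.74 to 1.88), and the water channel of astrocyte endfeet Aqp4 1005 sham and 282 vehicle counts, 2.88-fold lower (2.52 to 3.30); both stayed lower after correction, at -1.10 and -0.92. Agt, angiotensinogen, had 1543 sham and 3005 vehicle counts, 2.41-fold higher (2.27 to 2.56, corrected 0.90). Glul, the glutamine synthetase of astrocytes, passed neither way with 33346 sham and 35113 vehicle counts, ratio 1.3 (1.28 to 1.32). Microglial genes gave 11 lower and 1 higher of 40 after correction. P2ry12 and Cx3cr1, receptors of resting microglia, had 314 sham and 78 vehicle counts (corrected -1.22) and 908 sham and 304 vehicle counts (corrected -1.11), and the zinc finger factor Sall1 431 sham and 139 vehicle counts, 2.51-fold lower (2.07 to 3.06, corrected -1.17). Aif1, the gene of Iba1, had 73 sham and 57 vehicle counts, ratio 0.966 (0.671 to 1.38), so the list did not move as one.

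Myelin genes went both ways. Of 40, 2 were higher and 7 lower in vehicle, 5% and 17.5%, near the 8.66% and 14.2% over all genes. After correction 1 was higher and 7 lower, where the shares over all genes were 4.46% and 6.93%. The myelin gene Mobp had 25343 sham and 32762 vehicle counts, 1.6-fold higher (1.57 to 1.63, lost), and Mbp had ratio 1.44 (1.42 to 1.45). Their corrected log2 ratios were 0.35 and -0.17. Apod, a lipocalin of oligodendrocytes that carries lipids, had 3872 sham and 8244 vehicle counts and a corrected value of 1.43, and Ugt8a, which makes the myelin lipid galactosylceramide, 493 sham and 148 vehicle counts and -0.79. The glial membrane gene Gpm6b, one of the 10 largest losses in CPM, had 449.7 CPM in sham and 223 CPM in vehicle (corrected -0.62). Ptgds, a prostaglandin synthase of meninges and oligodendrocytes and one of the 10 largest gains, had 958 CPM in sham and 2025 CPM in vehicle (corrected 0.50, lost).

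Vessel genes also went both ways. Of 46 endothelial and barrier genes, 5 were higher and 8 lower in vehicle, and 3 were higher and 3 lower after correction. The shares before correction, 10.9% and 17.4%, were near the 8.66% and 14.2% over all genes. Plvap, a marker of leaky vessels, had 232 sham and 380 vehicle counts, 2.03-fold higher (1.72 to 2.40, corrected 0.63). The junction genes Ocln and Tjp1 had 135 sham and 39 vehicle counts and 1339 sham and 565 vehicle counts, and corrected values of -0.88 and -0.48. Cldn5, the main claudin of the barrier, passed neither way, with ratio 1.12 (0.993 to 1.26). Among VEGF, angiopoietin and adrenomedullin genes, 4 of 28 were higher and 6 lower, and 3 were higher and 3 lower after correction. Vegfa had 990 sham and 542 vehicle counts, ratio 0.677 (0.609 to 0.753), and passed as lower only after correction, at -1.10. Its receptor Kdr had 206 sham and 94 vehicle counts, 1.77-fold lower (1.38 to 2.29, corrected -0.52, lost), and Pecam1 437 sham and 427 vehicle counts, ratio 1.21 (1.06 to 1.38). The adrenomedullin receptor partner Ramp2 was 1.96-fold higher (1.70 to 2.26, corrected 0.43, lost) and its receptor Calcrl 2.42-fold lower (1.38 to 4.48, corrected -0.39, lost). Pericyte and smooth muscle genes had 4 higher and 1 lower of 22, and 2 were higher and 1 lower after correction. Acta2 had 379 sham and 515 vehicle counts (corrected 0.67).

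Matrix genes were lower more often than higher. Of 59 collagen and meningeal genes, 4 were higher and 13 lower in vehicle, and 0 were higher and 8 lower after correction. The collagens Col6a4 and Col19a1 had 115 sham and 20 vehicle counts and 84 sham and 15 vehicle counts, with Col6a4 4.65-fold lower (2.87 to 7.89, corrected -1.89) and Col19a1 4.53-fold lower (2.59 to 8.44, corrected -1.84). The basement membrane collagen Col4a2 had 1804 sham and 1562 vehicle counts, ratio 1.07 (1.0 to 1.15). Mgp, the matrix Gla protein of vessel walls, was higher with 290 sham and 492 vehicle counts, 2.10-fold higher (1.81 to 2.44, corrected 0.54, lost). Matrix proteases and their inhibitors had 2 higher and 17 lower of 52, and 2 were higher and 9 lower after correction. Adam10, the main alpha-secretase of neurons, had 898 sham and 342 vehicle counts, 2.12-fold lower (1.87 to 2.41, corrected -0.54, lost), and Timp4, an inhibitor of metalloproteases, 595 sham and 954 vehicle counts, 1.98-fold higher (1.79 to 2.20, corrected 1.33).

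Stress and energy genes had no common direction. Of 40 metallothionein and antioxidant genes, 10 were higher and 1 lower in vehicle, but 2 were higher and 0 lower after correction. The extracellular glutathione peroxidase Gpx3 had 419 sham and 766 vehicle counts, 2.26-fold higher (2.01 to 2.55, corrected 0.75), and the cystine importer Slc7a11 501 sham and 222 vehicle counts, 1.82-fold lower (1.55 to 2.15, corrected -0.11, lost). Of 40 genes of the integrated stress and unfolded protein responses, 3 were higher and 4 lower in vehicle, and 1 was higher and 0 lower after correction. The chaperone Hspa5 had 3553 sham and 2798 vehicle counts, ratio 0.974 (0.927 to 1.02). Sesn2, a stress sensor that p53 and Atf4 induce, had 268 sham and 398 vehicle counts, 1.84-fold higher (1.57 to 2.15, corrected 0.68). Hypoxia and glycolysis genes had 6 higher and 2 lower of 42, and 1 was higher and 2 lower after correction. Hif1a, the oxygen-regulated factor, had 706 sham and 337 vehicle counts, 1.69-fold lower (1.49 to 1.93, corrected -0.18, lost), and the glycolytic enzyme Pkm 25008 sham and 31385 vehicle counts, 1.55-fold higher (1.53 to 1.58, corrected 0.33, lost). Apoptosis and p53 targets had 6 higher and 2 lower of 41, led by Cdkn1a, and 4 were higher and 1 lower after correction. Xiap, an inhibitor of caspases, had 978 sham and 331 vehicle counts, 2.39-fold lower (2.11 to 2.71, lost), and -0.43 after correction. Heat shock and DnaJ genes had 1 higher and 7 lower of 75, and 0 were higher and 2 lower after correction. The inducible chaperone Hsp90aa1 had 10818 sham and 5698 vehicle counts, 1.53-fold lower (1.49 to 1.58, corrected -0.25, lost).

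Several cholesterol synthesis genes were lower. Of 37 genes of cholesterol synthesis and uptake, 2 were higher and 8 lower in vehicle, and 1 was higher and 4 lower after correction. Idi1, the isopentenyl isomerase, had 166 sham and 56 vehicle counts, 2.40-fold lower (1.76 to 3.30, corrected -0.79). Hmgcs1, an early enzyme of the pathway, had 2521 sham and 1097 vehicle counts, 1.86-fold lower (1.73 to 2.0, corrected -0.48, lost). Cyp46a1, which turns neuronal cholesterol over, had 5174 sham and 5333 vehicle counts, ratio 1.28 (1.23 to 1.33). The carriers Apoe and Apod, which are on the same list, were the 2 higher members.

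The title of the series names neurogenesis and angiogenesis, so genes of newborn neurons and of growth factors are given together. Of 36 neural stem cell and newborn neuron genes, 3 were higher and 6 lower in vehicle. Those shares, 8.33% and 16.7%, were near the 8.66% and 14.2% over all genes. After correction 1 was higher and 8 lower, where the shares over all genes were 4.46% and 6.93%. Dcx, which marks newborn neurons, had 497 sham and 193 vehicle counts, 2.08-fold lower (1.76 to 2.47), and -1.16 after correction. The stem cell factor Sox2 had 681 sham and 329 vehicle counts, 1.67-fold lower (1.46 to 1.91), and -0.85 after correction, while Nes had 150 sham and 164 vehicle counts, ratio 1.35 (1.08 to 1.70). Thbs4, an astrocyte-secreted matrix protein of the neurogenic zone, was higher with 143 sham and 202 vehicle counts, 1.75-fold higher (1.4 to 2.18, corrected 0.64). Mki67, a gene of dividing cells, had 33 sham and 15 vehicle counts, ratio 0.562 (0.284 to 1.06), and no difference was detectable at this depth. Neurotrophin and GDNF family genes had 1 higher and 1 lower of 19, and 0 were higher and 1 lower after correction. Bdnf had 298 sham and 105 vehicle counts, 2.29-fold lower (1.83 to 2.89), and -0.61 after correction, and its receptor Ntrk2 11056 sham and 7773 vehicle counts, ratio 0.870 (0.845 to 0.896). Notch, Wnt and Fgf genes had 5 higher and 10 lower of 78, 6.41% and 12.8%, near the shares over all genes, and 1 and 2 after correction. The inhibitory Hes family member Hes6 had 265 sham and 420 vehicle counts, 1.96-fold higher (1.68 to 2.30, corrected 0.47, lost), and the Wnt pathway scaffold Apc 4434 sham and 1636 vehicle counts, 2.19-fold lower (2.07 to 2.32, corrected -0.45, lost).

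Transcripts of the Y chromosome were present in both libraries: Ddx3y had 496 sham and 213 vehicle counts, 1.88-fold lower (1.6 to 2.22, corrected -0.16, lost), and Eif2s3y 546 sham and 244 vehicle counts, 1.81-fold lower (1.55 to 2.11, corrected -0.52, lost). Ddx3x, the X-linked partner of Ddx3y, had 2537 sham and 1249 vehicle counts (corrected -0.13, lost). Eif2s3x, the partner of Eif2s3y, had 866 sham and 579 vehicle counts, ratio 0.827 (0.743 to 0.920), past the rule neither way. The X-linked gene Kdm5c had 1032 sham and 785 vehicle counts. Of 8 measured sex-linked genes 5 were lower, and 1 after correction, which was Kdm6a at -0.69.

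Long noncoding RNAs of brain leaned higher only after correction. Of 30 measured, 3 were higher and 4 lower in vehicle, but of 29 with a corrected value 7 were higher and 1 lower after correction, where the shares over all genes were 4.46% and 6.93%, with medians of -0.07 and 0.39. Meg3, one of the most abundant, had 85799 sham and 64990 vehicle counts, ratio 0.937 (0.928 to 0.947). The snoRNA hosts Snhg8 and Zfas1 were higher with 226 sham and 420 vehicle counts and 380 sham and 549 vehicle counts, 2.30-fold higher (1.95 to 2.71, corrected 1.03) and 1.79-fold higher (1.57 to 2.04, corrected 0.89). Snhg14, the long host transcript of the imprinted Angelman locus that runs antisense to Ube3a, had 622 sham and 214 vehicle counts, 2.35-fold lower (2.01 to 2.76, lost), and -0.20 after correction. With the strand setting of the counting unknown, reads of overlapping antisense genes cannot be told apart. Small nucleolar and microRNA genes were few, 18 measured, and their short length lies at the edge of the fitted trend, where the correction is least certain.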

How the data were processed

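RNA-seq of 3 mouse brain libraries, 1 per group, was used. The authors deposited whole-number counts per gene symbol. Tools named in the submitters' processing notes are TopHat2 2.0.12, HTSeq 0.6.0 and Bowtie2 2.2.3, with build mm9. Not given in the sources used here are their settings, the annotation and the strand. Every symbol had at least 21 counts summed over the libraries.

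Counts were scaled by TMM over the 3 libraries (edgeR 4.0.16, R 4.3.3), with DESeq2 1.42.0 size factors as an alternative. The rest used scipy 1.17.1, numpy 2.4.6, matplotlib 3.10.9, pandas 2.3.3 and Python 3.11.15. No p-value was computed, since each group has 1 library. Intervals are 95% exact conditional binomial intervals of the ratio. The floor of a count of 0 was 3 counts per library.

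The trend was a spline with 5 knots in log length and in GC content, fitted to genes of at least 10 CPM. Lengths and GC contents came from the GENCODE M21 transcripts, for 17569 of 17992 symbols (97.6%). Calculations were tested on simulated data with 200 changed genes.

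The members and the 74 gene lists, 22 of them built from name patterns, with 2852 distinct counted genes, were chosen with earlier results of these data known. Genes were named by rule among those past the size rule with no predicted name and 50 counts or more in the higher library. The rule took the 15 each way with the bound nearest 1 farthest out, the 15 each way with the largest corrected log2 ratio, the 10 largest gains and losses in CPM, up to 5 genes a list by size, the 3 most abundant of each list, and a fixed set of markers. Alternatives were plain CPM, other size factors, TMM over 2 libraries, other filters and limits, a prior count of 1 and the corrections for length and GC. Some genes that the rule names are not reported here.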

Additional observations from a re-analysis of the deposited data

How the results depend on the processing

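Counts of 1348 higher and 2207 lower genes became 1354 and 2206 with DESeq2 size factors, 1264 and 2303 with TMM over 2 libraries, and 1522 and 2430 with no filter. The number of higher genes was 890 with plain CPM. At a mean of at least 10 CPM 710 were higher and 1235 lower, at a ratio of at least 2 the counts were 307 and 711, and with the whole interval beyond 1.5-fold 387 and 959. After the correction for length and GC 680 and 1055 passed, and after that for length alone 674 were higher and 1895 lower. The share of variance that the trend accounted for, 48.2%, was 36.0% over genes of at least 1 CPM and 46.7% with linear terms. Of 499 named genes, 25 no longer passed and 5 newly passed with plain CPM, and none changed with DESeq2 size factors or a prior count of 1. Of 496 with a length and GC value, 164 no longer passed after the correction for both with their sign unchanged, and 3 newly passed. Another 12 changed sign and are counted apart from the 164, among them genes such as Grin2b that also no longer passed. Named genes past the rule neither way that changed sign are not among these 12.

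For the 12 genes counted as changing sign after the correction for length and GC, the log2 ratios became -0.12 for Atp5e, -0.039 for Cox6a1, -0.022 for Cox8a, 0.049 for Dnajb14, 0.10 for Gabrg1, 0.069 for Grin2b, 0.067 for Hspa4l, -0.012 for Selenow, -0.46 for Snord104, -0.59 for Snord55, -0.13 for Uqcr10 and -0.015 for Uqcr11. Genes past the rule neither way also changed sign, such as Aldoa from 0.56 to -0.09 and Calb1 from -0.41 to 0.29. Several list medians crossed 0 as well. That of the Zfp list went from -0.27 to 0.0076 and that of the long noncoding RNAs from -0.07 to 0.39. In the other direction, the median of the MHC class I list went from 0.09 to -0.08 and that of the hypothalamic list from 0.27 to -0.07. With length alone, Grin2b became 0.036, Snord104 -0.40 and Snord55 -0.35. The cause was not tested. No paired analysis was possible because each group had 1 library, and for the same reason no replicate could be left out. Intervals cover counting error only, and differences between animals, dissections or library preparations cannot be told apart from the conditions. At 15718594 to 18286151 counts a library, genes under a mean of 1 CPM were not compared, and a count of 0 allows up to 0.159 CPM in sham and 0.197 CPM in vehicle.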

Other observations

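The AGNHW library, which entered the comparison only through the scaling and the filter, had its own levels of the genes with the largest differences. The pituitary hormone gene Gh had 4 counts there, Prl 1 and Pomc 40. The serotonin transporter gene Slc6a4 had 20 counts and the glycine transporter gene Slc6a5 4. Of the interferon-induced genes, Oasl2 had 68 counts, Ifit1 27, Isg15 21 and Irf7 40. The glucocorticoid-responsive genes Cdkn1a and Plin4 had 86.2 CPM and 72.5 CPM, against 20.5 CPM in sham and 100.2 CPM in vehicle and 18.2 CPM in sham and 85.7 CPM in vehicle. Lcn2 had 332 counts and Icam1 53. These values are from 1 library and have no error.

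By class of transcript in the reference, 32 of 312 antisense genes were higher and 31 lower, and lincRNAs 31 and 41 of 321. Protein-coding genes had 1115 higher and 1969 lower of 13670. Xist was not analysed here.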
